A study of Xenopus tropicalis with 6 samples.

Results

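The 7 Hox genes of paralog groups 4 to 6 measured in these brains are *hoxa4*, *hoxb4*, *hoxc4*, *hoxa5*, *hoxb5*, *hoxc5* and *hoxc6*. They were picked out by gene symbol among the 15076 gene models tested, of 34229 counted, and they were chosen on the difference between *dyrk1a* CRISPR and control brains in these same libraries. The values of that difference are therefore given for the 7 genes as a description and without a p-value. All 7 passed the filter on low values, which kept genes with more than 1 cpm (the count of a gene relative to the depth of its library) in at least 3 libraries. *hoxc6* passed it only through the 3 control libraries, so it had to be higher there.

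RNA came from dissected brains of *Xenopus tropicalis* tadpoles at stage 46, bred from wild-type adults. In 3 *dyrk1a* CRISPR libraries, labelled as knockdown, the tadpoles had received Cas9 protein and a guide RNA against *dyrk1a*, a gene for a protein kinase, in both cells of the 2-cell embryo. In 3 control libraries the tadpoles were uninjected, so the controls carried neither the mutation nor the injection. Each library pools 3 brains, and the CRISPR brains were those most mutagenized by genotyping of the carcasses, which are mosaic for the mutations. The level at which the brain was cut from the spinal cord is not given in the sources used here.

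Hox genes encode homeodomain transcription factors that give cells their position along the body axis. They lie in clusters named A to D, and genes of low paralog number start to be expressed further forward than genes of high number. In the nervous system groups 1 to 3 mark successive segments of the hindbrain, while groups 4 to 6 have their front borders in the caudal hindbrain and the anterior spinal cord. In the RefSeq annotation of a later assembly of the frog genome, *hoxc3*, *hoxc4*, *hoxc5* and *hoxc6* lie next to each other in that order, as do *hoxa3*, *hoxa4* and *hoxa5* and *hoxb3*, *hoxb4* and *hoxb5*. No tested gene model carried the symbol of *hoxd4*, *hoxa6* or *hoxb6*, or of any Hox gene of groups 7 to 13 on the list used. *hoxc6* therefore had the highest paralog number of the 15 tested genes with a Hox symbol. Of the 15076 tested models 12506 carried a symbol, and a Hox gene among the rest could not be named.

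Gene counts summed to between 9603583 and 35071943 per library, and control replicate 3 was the shallowest. Levels below are in cpm with library sizes scaled by TMM, are not corrected for gene length and are compared only within a gene. Brain markers were present throughout: the summed level of 10 of 10 tested neuronal, glial and progenitor markers lay between 10095 and 10742 cpm in CRISPR libraries and between 10063 and 11428 cpm in control libraries. *dyrk1a* itself averaged 14.98 ± 1.80 cpm in the CRISPR libraries against 15.6 ± 5.36 cpm in the controls (SD, 3 libraries each, edgeR adjusted p = 0.936), and small insertions and deletions need not alter a count. Where 3 values of a group are given, they follow replicates 1, 2 and 3 in that order.

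Among the group 4 genes, which reach furthest forward of the 7, *hoxc4* measured 26.9, 30.6 and 23.7 cpm in the CRISPR libraries against 49.7, 47.8 and 34.6 cpm in the controls. All CRISPR libraries lay below all control libraries, and the mean was 1.63-fold lower (27.1 ± 3.42 against 44.1 ± 8.20 cpm, SD, n = 3 each). *hoxa4* measured 12.3, 15.9 and 8.54 cpm in the CRISPR libraries against 15.4, 17.6 and 12.99 cpm in the controls. Here the groups overlapped, since CRISPR replicate 2 lay above control replicates 1 and 3. *hoxb4*, which in vertebrates has its front border within the caudal hindbrain, was at 3.12, 2.44 and 1.17 cpm against 2.64 cpm in control replicate 3, 3.72 cpm in control replicate 1 and 4.73 cpm in control replicate 2. Its groups overlapped too, through CRISPR replicate 1 and the shallow control replicate 3, in which *hoxb4* rested on 25 counts. The log2 fold changes, CRISPR minus control, were -0.71 for *hoxc4* (standard error 0.17), -0.34 for *hoxa4* (standard error 0.23) and -0.73 for *hoxb4* (standard error 0.38). Without CRISPR replicate 3 those of *hoxa4* and *hoxb4* were -0.14 and -0.44, and without CRISPR replicate 2 that of *hoxa4* was -0.57.

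**Figure D1:**
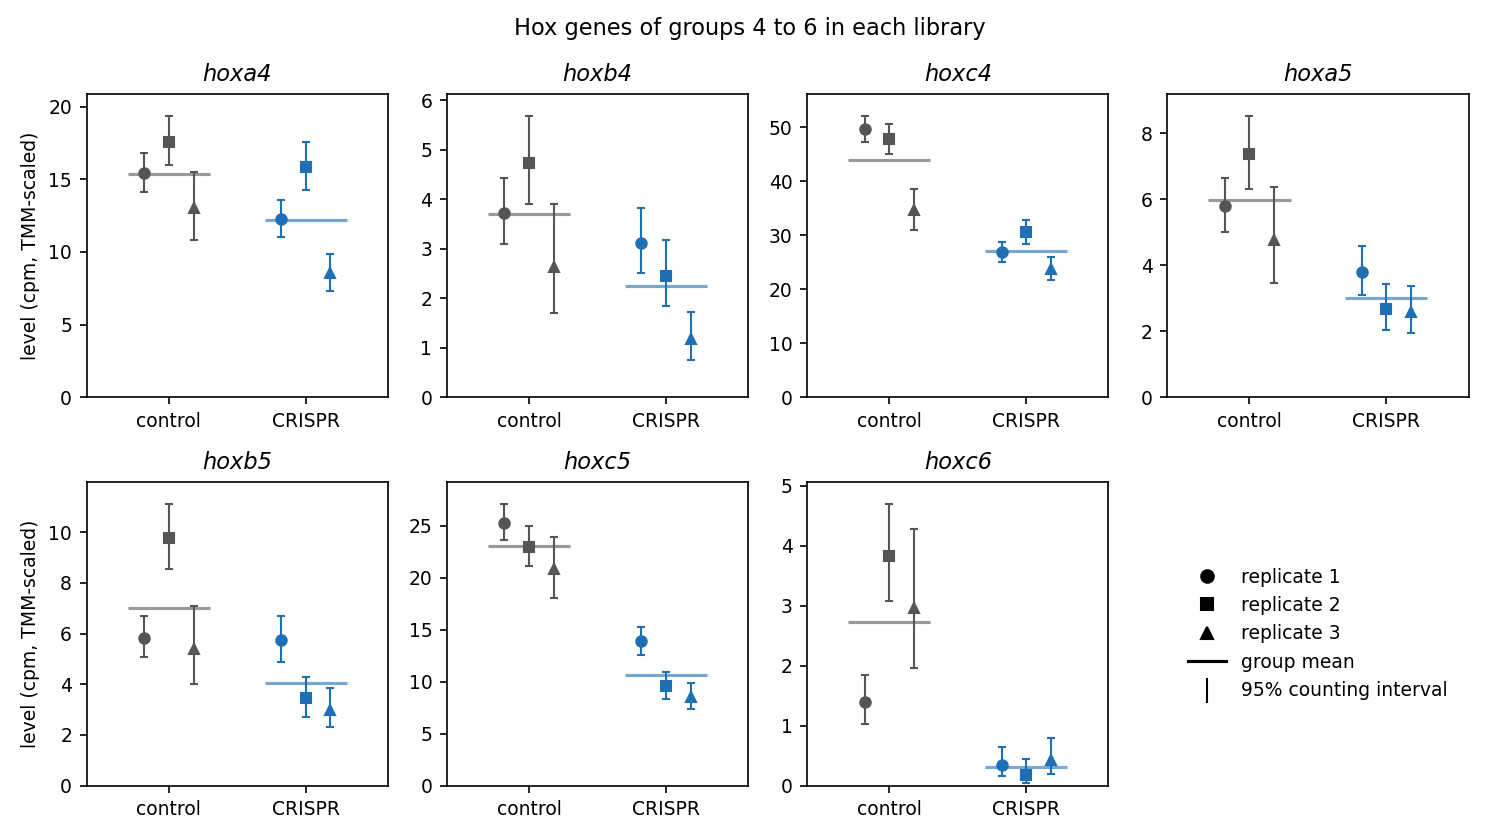
Level of each of the 7 Hox genes in each library, in cpm on TMM-scaled library sizes, with control libraries in grey and *dyrk1a* CRISPR libraries in blue. Marker shapes stand for replicate numbers, bars for exact 95% counting intervals and horizontal lines for group means; the groups do not overlap for *hoxc4*, *hoxa5*, *hoxc5* and *hoxc6*, and they overlap for *hoxa4*, *hoxb4* and *hoxb5*.

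Of the group 5 genes, *hoxc5* and *hoxa5* had no overlap between the groups and *hoxb5* did. *hoxc5*, which in mice acts together with *hoxa5* in phrenic motor neurons of the cervical spinal cord, measured 13.9, 9.55 and 8.54 cpm in the CRISPR libraries against 25.3, 23.0 and 20.8 cpm in the controls. The highest CRISPR library was 6.95 cpm below the lowest control library, and the mean was 2.16-fold lower. *hoxa5* measured 3.78, 2.66 and 2.58 cpm against 5.78, 7.35 and 4.75 cpm, again with no overlap and a mean 1.98-fold lower. *hoxb5*, known from mice for its role in neural crest cells of the gut, was at 5.74, 3.45 and 3.00 cpm against 5.84, 9.76 and 5.39 cpm. CRISPR replicate 1 lay among the control libraries for this gene, and control replicate 2 lay above the other control libraries. The log2 fold changes were -1.11 for *hoxc5* (standard error 0.20), -0.99 for *hoxa5* (standard error 0.27) and -0.79 for *hoxb5* (standard error 0.32). Without control replicate 2 that of *hoxb5* was -0.47, and without CRISPR replicate 1 it was -1.14.

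*hoxc6*, a gene of the trunk that in mouse and chick marks spinal cord at forelimb level, was the member that differed most. Its raw counts were 10, 4 and 9 in the CRISPR libraries against 48, 92 and 28 in the controls. In cpm these were 0.350, 0.174 and 0.422 against 1.40, 3.82 and 2.96, so the groups did not overlap. That was fixed by the filter on low values, which *hoxc6* passed only through the control libraries. The exact 95% binomial (Clopper-Pearson) intervals, which cover counting error only, reached up to 0.801 cpm in the highest CRISPR library and down to 1.03 cpm in the lowest control library. The means were 0.316 ± 0.127 and 2.72 ± 1.23 cpm (SD, n = 3 each), 8.63-fold apart, and the log2 fold change of -3.07 (standard error 0.52) was the lowest of all 15076 tested genes. The 3 control libraries differed among themselves by more than counting error. Control replicate 1, the deepest, had a lower *hoxc6* level in cpm than the other control libraries, and without control replicate 2, the highest, the log2 fold change was -2.70.

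Of the 7 genes, 4 had all CRISPR libraries below all control libraries (57.1%), as did 9.72% of all tested genes, while 0 of the 7 and 9.13% of all tested genes had the reverse order. By the edgeR quasi-likelihood test with adjustment over all genes, 0 of the 7 were called lower or higher at an adjusted p under 0.05, against a background of 0.00663% called lower and 0% called higher. At an unadjusted p under 0.05 edgeR had 5 of the 7 lower, against a background of 6.14%. DESeq2 called 3 of the 7 lower, *hoxc4*, *hoxc5* and *hoxc6*, against a background of 0.809%. All of these counts come from the contrast on which the genes were chosen, and nothing is read from them. *hoxc6* is among the 4, the 5 and the 3. Its lack of overlap was fixed by the filter, which it passed only through the control libraries. Since the RNA is bulk RNA of whole pools, fewer cells that express a gene and less RNA per cell cannot be told apart. The level at which the brains were cut is not given. A cut that differed between the groups therefore cannot be told apart from an effect of the mutation or of the injection.

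In the A and C clusters the most negative log2 fold change belonged to the tested gene of highest paralog number. In the C cluster it ran from 0.64 for *hoxc3* (standard error 0.29) to -0.71 for *hoxc4*, -1.11 for *hoxc5* and -3.07 for *hoxc6*. In the A cluster it was 0.09 for *hoxa2*, -0.18 for *hoxa3*, -0.34 for *hoxa4* and -0.99 for *hoxa5*. In the B cluster it was 0.16 for *hoxb2*, -0.15 for *hoxb3*, -0.73 for *hoxb4* and -0.79 for *hoxb5*, the last step being smaller than either standard error. The order of *hoxb4* and *hoxb5* turned with limma-voom (-0.83 and -0.79), without CRISPR replicate 2 (-0.80 and -0.69) and without control replicate 2 (-0.53 and -0.47). The order within the 7 genes is a description, with no test. For *hoxc6* the filter on low values had fixed the negative direction.

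**Figure D2:**
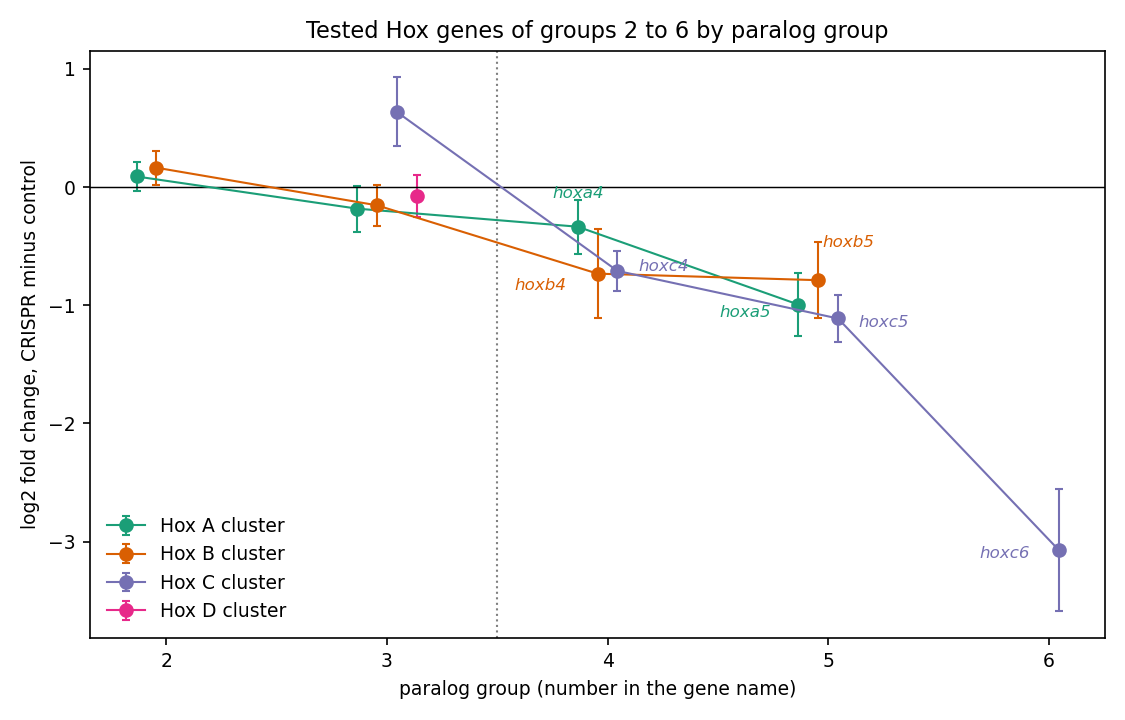
Log2 fold change, CRISPR minus control, of the tested Hox genes of groups 2 to 6 (vertical axis, bars are standard errors of the edgeR fit) against paralog group (horizontal axis), with 1 colour per cluster. Left of the dotted line the 6 genes of groups 2 and 3 lie between -0.18 and 0.64; right of it the 7 genes of groups 4 to 6 lie between -3.07 and -0.34.

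The more rostral Hox genes are not members of the 7 and were tested. Of the 8 tested Hox genes of groups 1 to 3, edgeR called 0, 0 had an unadjusted p under 0.05, and DESeq2 called 0. Their log2 fold changes lay between -0.18 and 0.64. *hoxa2*, which patterns the second branchial arch in mice, averaged 40.5 ± 1.26 cpm in the CRISPR libraries against 38.0 ± 3.03 cpm in the controls (SD, 3 libraries each, edgeR adjusted p = 0.795). *hoxb3*, a gene of the mid hindbrain, was at 65.0 ± 15.4 against 72.2 ± 9.17 cpm (edgeR adjusted p = 0.752). *hoxd3* and *hoxd1*, the tested genes of the D cluster, had log2 fold changes of -0.08 (standard error 0.18, edgeR adjusted p = 0.896) and 0.16 (standard error 0.34, edgeR adjusted p = 0.88). *hoxc3*, which frogs have kept and mammals have lost, measured 3.75, 3.88 and 5.16 cpm in the CRISPR libraries against 3.23, 2.95 and 1.80 cpm in the controls. It was the 1 gene of the 8 (12.5%) whose groups did not overlap, and 9.13% of all tested genes had all CRISPR libraries above all control libraries. The direction was opposite to that of its neighbour *hoxc4*, and *hoxc3* did not pass the test (edgeR adjusted p = 0.391). A p that misses the threshold does not show that levels were alike.

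Relative to those neighbours the sum of the 7 genes, of which *hoxc4* held the largest share, differed between the groups without overlap. The summed counts of the 7 came to 28.5%, 26.8% and 25.7% of the summed counts of the 8 genes of groups 1 to 3 in turn in each of the CRISPR libraries. In the controls they came to 45.4%, 46.3% and 43.2%. The means were 27.0% ± 1.40 and 45.0% ± 1.57 (SD, n = 3 each). This ratio largely restates the contrast on which the 7 were chosen, so it is a description with no test. CRISPR replicate 3 and control replicate 3 had the lowest summed level of their group in both sets of genes, at 48.0 and 84.2 cpm for groups 4 to 6 and at 187 and 195 cpm for groups 1 to 3. Their ratios, 25.7% and 43.2%, were also the lowest of each group. In 6 of the 7 genes CRISPR replicate 3 was the lowest of the 6 libraries, and in 5 of the 7 control replicate 2 was the highest.

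Within the C cluster 1 of the 2 ratios to *hoxc4* separated the groups. Both genes of each ratio in this paragraph are members of the 7, so these ratios are a description too. *hoxc5* counts per 100 of *hoxc4* were 51.6, 31.2 and 36.0 in the CRISPR libraries and 50.9, 48.0 and 60.1 in the controls, so CRISPR replicate 1 lay above control replicates 1 and 2. *hoxc6* counts came to 1.30%, 0.571% and 1.78% of *hoxc4* counts in the CRISPR libraries against 2.81%, 7.99% and 8.54% in the controls. Because *hoxc6* passed the filter on low values only through the control libraries, nothing is read from this separation. *hoxc4* alone held between 40.7% and 49.5% of the counts of the 7 genes in every library, while *hoxc6* held between 0.270% and 0.880% in CRISPR libraries and between 1.30% and 3.51% in control libraries. For *hoxa5* the ratio was 30.9, 16.8 and 30.2 counts per 100 of *hoxa4* in CRISPR libraries and 37.5, 41.7 and 36.6 in control libraries. For *hoxb5* and *hoxb4* the ranges of the ratio overlapped, at 141 to 256 counts of *hoxb5* per 100 of *hoxb4* in CRISPR libraries and 157 to 206 in control libraries.

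Exon counts gave a measure that the choice of the genes did not use, the share of each exon bin in the bin counts of its gene. The 7 genes have 30 bins, of which 27 had counts and were tested. With edgeR's exon usage test 0 of the 27 were called, against a background of 0% of 214537 bins, and 0 had an unadjusted p under 0.05, against a background of 1.07%. The 3 bins of *hoxc5* and the bins of *hoxa5* kept their shares closely: bin 2 of *hoxc5* had 77.4% ± 1.35 of its counts in the CRISPR libraries against 76.9% ± 1.11 in the controls, and bin 2 of *hoxa5* had 69.7% ± 3.77 against 69.7% ± 3.42 (SD, 3 libraries each). In 5 of the 27 bins (18.5%, against a background of 8.35% of all tested bins), *hoxa4* bin 3, *hoxb4* bins 2 and 3, *hoxb5* bin 3 and *hoxc6* bin 7, the groups did not overlap (exact permutation p = 0.1, two-sided, the smallest that 3 libraries against 3 can give). The shares of *hoxb4* bin 3 were 22.3% ± 4.10 against 31.2% ± 2.37 (SD, 3 libraries each), and its bin 2, the only other bin with counts, had the remainder, so these 2 of the 5 bins are 1 difference.

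The smallest unadjusted p of the 27 bins was that of *hoxc6* bin 7 (edgeR p = 0.0541, edgeR adjusted p = 0.999999, exact permutation p = 0.1). It held 7, 24 and 13 counts in the control libraries, which is 15.9% ± 6.69 (SD, n = 3) of the *hoxc6* bin counts, and 0 of 26 bin counts in the CRISPR libraries, which allows a share of up to 11.5%. That limit covers counting error only, and it pools the libraries and takes bin counts as independent, which they need not be. Control libraries had *hoxc6* counts in bins 3, 4, 5, 7 and 8 as well as in bin 2, whereas 23 of the 26 CRISPR counts lay in bin 2. Outside bin 2 the CRISPR libraries had 9.09%, 33.3% and 0% of their *hoxc6* bin counts and the control libraries 33.3%, 51.5% and 62.5% (two-sided exact permutation test, p = 0.2; a comparison chosen after the counts were seen). The permutation test of 3 libraries against 3 cannot give a p under 0.1 at any depth. The CRISPR shares also rest on only 11, 6 and 9 bin counts per library, so whether *hoxc6* exon usage differed is not settled. A read can count in several bins, so bin counts sum to more than gene counts.

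**Figure D3:**
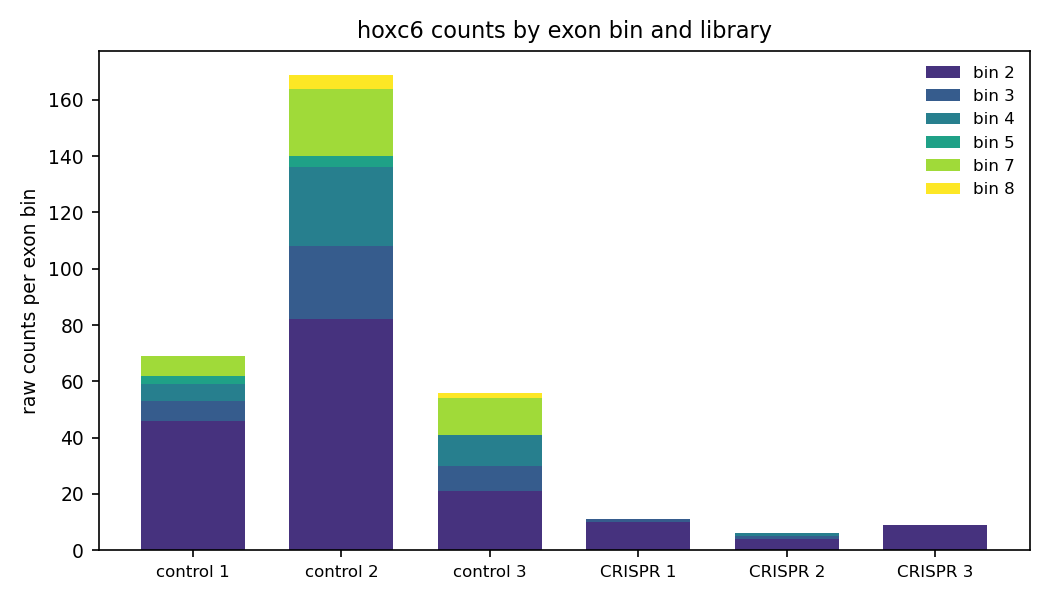
Raw counts of *hoxc6* by exon bin (colours) in each library, not scaled for depth. The control libraries hold 69, 169 and 56 bin counts in bins 2, 3, 4, 5, 7 and 8, and the CRISPR libraries hold 11, 6 and 9, of which all but 3 lie in bin 2.

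None of the 7 gene models was merged with another gene in the exon counts, whereas *hoxa3* and *hoxd3* were. In the later RefSeq assembly the *hoxa3* model overlaps *hoxa4* and *hoxa5*, and the *hoxb3* model overlaps *hoxb4* and *hoxb5*. The libraries carry no mark of strand and Hox genes share a conserved homeobox, and whether reads were assigned to the wrong Hox gene was not tested.

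How much caudal and non-neural tissue the pools held bears on these genes, since the 7 are expressed where the brain passes into the spinal cord. The tested skeletal muscle markers were also lower in the CRISPR libraries. The summed level of 7 tested muscle markers (*mylpf*, *myl1*, *tnnt3*, *tnni2*, *tnnc2*, *ckm* and *actc1*; the eighth, *myod1*, was not among the tested symbols) was 32.7, 21.7 and 19.1 cpm in the CRISPR libraries against 63.5, 216 and 79.7 cpm in the controls. All 7 of these markers had all CRISPR libraries below all control libraries, as did 9.72% of all tested genes. Of these 7 markers, 0 were at 0 counts in any library. *ckm*, muscle creatine kinase, was at 10.4, 5.71 and 4.69 cpm against 22.4, 93.0 and 33.5 cpm (edgeR adjusted p = 0.0931, DESeq2 adjusted p = 0.00506), and *mylpf*, a myosin light chain gene, differed by -2.73 on the log2 scale (standard error 0.46, edgeR adjusted p = 0.0931, DESeq2 adjusted p = 7.24e-07). The wider muscle list, which includes these markers, had 54 genes, of which 22 were tested. Like the gene lists below, it was chosen with earlier results of these data known. Its counts and p-values are therefore no independent test. Of the 22 tested muscle genes, edgeR called 0 and DESeq2 called 7 lower, the latter against a background of 0.809%. At an unadjusted p under 0.05 edgeR had 11 lower and 0 higher, against a background of 6.14% lower. In 11 of the 22 all CRISPR libraries lay below all control libraries, and 4 of the 22 had a positive log2 fold change. Among control libraries the order of the marker sum, replicate 2 above replicate 3 above replicate 1, was also the order of *hoxc6*, but of no other gene of the 7 Hox genes. *hoxc4* and *hoxc5* were highest in control replicate 1. *hoxa4*, *hoxb4*, *hoxa5* and *hoxb5* were highest in control replicate 2, as the sum was, but lowest in control replicate 3. Nor was the order of the sum that of *mylpf*, *tnni2* and *tnnc2*, which were higher in control replicate 1 than in control replicate 3. Among CRISPR libraries the sum was highest in replicate 1 and lowest in replicate 3. *hoxb4*, *hoxa5*, *hoxb5* and *hoxc5* ran in the same order, replicate 1 above replicate 2 above replicate 3. *hoxa4* and *hoxc4* were highest in replicate 2, and *hoxc6* was highest in replicate 3 and lowest in replicate 2. The part of muscle or of adjoining trunk tissue in the Hox values was not tested.

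Summed markers of the neurons of caudal hindbrain and spinal cord overlapped between the groups. The summed level of 8 tested markers (among them *mnx1*, *lhx3*, *evx1* and *lbx1*) was 199, 212 and 190 cpm in CRISPR libraries and 215, 230 and 193 cpm in control libraries, and 0 of the 8 separated the groups. The lowest edgeR adjusted p of the 8 was 0.556, and their log2 fold changes lay between -0.58 and 0.17. Over the wider list of 30 tested genes the median log2 fold change was -0.05, beside 0.01 over all tested genes. In 1 of the 30 (3.33%) all CRISPR libraries lay below all control libraries, and in 3 (10%) above. Over all tested genes these shares were 9.72% and 9.13%. EdgeR called 0 of the 30. At an unadjusted p under 0.05 it had 1 higher and 0 lower, beside 1023 and 926 of all 15076 tested genes. DESeq2 called the same gene, *dbx1*, a gene of ventral interneuron progenitors (20.9 against 13.9 cpm, log2 fold change 0.59, standard error 0.16, edgeR adjusted p = 0.171, DESeq2 adjusted p = 0.0397). Several of these genes are also expressed in more rostral parts of the brain, so their sum does not measure the length of spinal cord in a pool.

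Notochord and cartilage markers went in both directions. The summed level of *not*, *col2a1*, *col9a1* and *acan* was 197, 93.3 and 129 cpm in CRISPR libraries and 62.4, 60.7 and 80.6 cpm in control libraries, and most of it was the collagen gene *col2a1* (121 against 51.8 cpm, log2 fold change 1.23, standard error 0.27, edgeR adjusted p = 0.115, DESeq2 adjusted p = 0.000381). *acan*, the cartilage proteoglycan aggrecan, was at 0.507 against 1.11 cpm (edgeR adjusted p = 0.292), and *hapln1*, a cartilage link protein gene, had a log2 fold change of -0.54 (edgeR adjusted p = 0.267). Both had all CRISPR libraries below all control libraries. *acan*, however, passed the filter on low values only through the 3 control libraries, so it had to be higher there. Of the wider list of 16 tested genes, 2 (*acan* among them) separated the groups with lower and 3 with higher CRISPR levels. Over all tested genes these shares were 9.72% and 9.13%. EdgeR called 0 of the 16, and the median was 0.11. At the other end of the brain, the median over 28 tested regulators of forebrain and midbrain was 0.08 on the log2 scale, and 0 of them were called by edgeR or DESeq2 or reached an unadjusted p under 0.05.

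**Figure D4:**
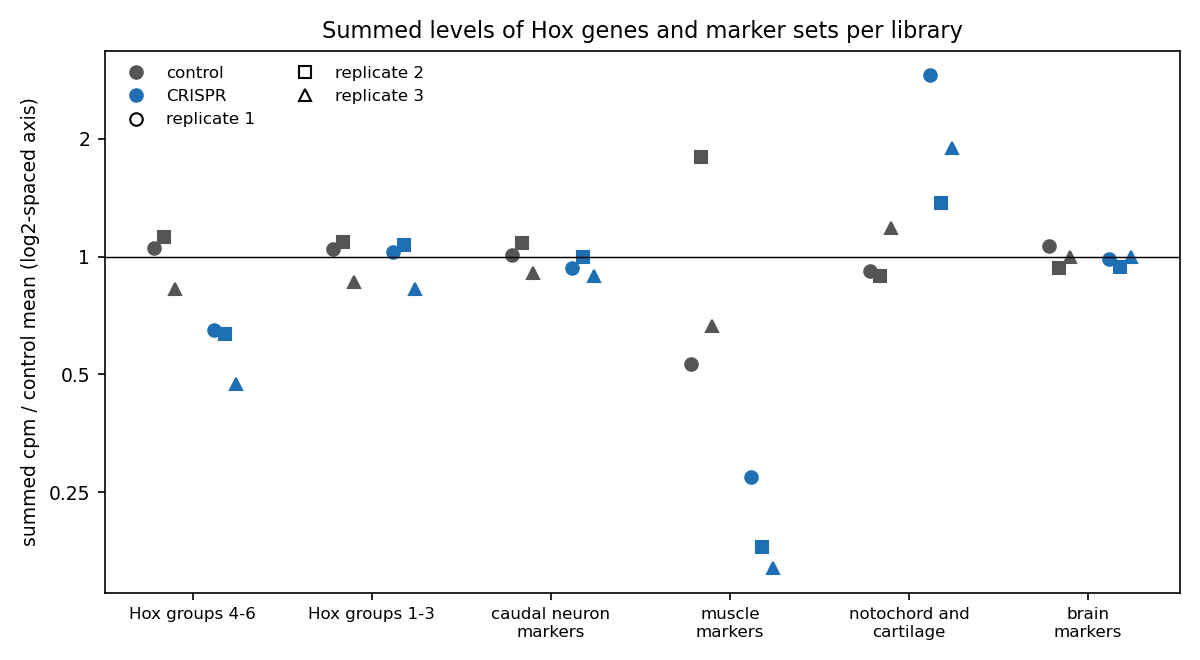
Summed cpm of each set of genes in each library, divided by the mean of the 3 control libraries (vertical axis, log2-spaced), with control libraries in grey and CRISPR libraries in blue. The Hox genes of groups 4 to 6 and the muscle markers lie lower in all CRISPR libraries than in any control library, the Hox genes of groups 1 to 3 and the caudal neuron markers overlap, and the notochord and cartilage markers lie higher in all CRISPR libraries.

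Genes that act with or upstream of Hox genes were examined from lists. Hox proteins bind DNA with TALE homeodomain partners of the Pbx, Meis and Pknox families. Of 8 tested partner genes edgeR called 0 and DESeq2 called 0. At an unadjusted p under 0.05, 1 was lower, against a background of 6.14%. This was *pknox2*, at 55.5 against 67.9 cpm (log2 fold change -0.29, standard error 0.10, edgeR adjusted p = 0.292). *meis3*, which in *Xenopus* is needed for hindbrain Hox expression, was at 187 against 162 cpm (log2 fold change 0.21, standard error 0.11, edgeR adjusted p = 0.46).

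Retinoic acid, made by Aldh1a2 in the trunk mesoderm and broken down by Cyp26 enzymes, sets the front borders of group 4 and 5 genes, and Cdx and Egr2 proteins also regulate Hox genes. Of 18 tested genes of this list edgeR called 0 and DESeq2 called 0. At an unadjusted p under 0.05, 2 were lower and 0 higher, against a background of 6.14% lower. These 2 were *rarb*, a retinoic acid receptor that retinoic acid itself induces, at 19.4 against 25.7 cpm (log2 fold change -0.40, standard error 0.16, edgeR adjusted p = 0.341), and *cyp26a1*, at 5.33 against 7.80 cpm (log2 fold change -0.56, standard error 0.25, edgeR adjusted p = 0.384). In both, all CRISPR libraries lay below all control libraries, as they did in 9.72% of all tested genes. These 2 are 11.1% of the list, near that share. *aldh1a2* was at 29.8 against 36.1 cpm (log2 fold change -0.27, standard error 0.16, edgeR adjusted p = 0.492). The median of the 18 was -0.12.

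Polycomb and trithorax complexes keep Hox genes silent or active. Of 31 tested genes of these complexes edgeR called 0. An unadjusted p under 0.05 was reached by 3 with higher and 3 with lower levels, beside 1023 and 926 of all 15076 tested genes. DESeq2 called 1 with a higher level. This was *ezh2*, the methyltransferase of Polycomb repressive complex 2, at 59.0 against 35.5 cpm (log2 fold change 0.73, standard error 0.12, edgeR adjusted p = 0.0914, DESeq2 adjusted p = 3.37e-05). Of other genes of that complex, *eed*, *suz12* and *ezh1* had log2 fold changes of 0.03, 0.15 and -0.08 (edgeR adjusted p = 0.926, 0.863 and 0.879). That of *rbbp4* was 0.32 (edgeR adjusted p = 0.338). Whether *ezh2* bears on the Hox levels was not tested. *kdm6b*, which removes the mark that Ezh2 sets, was at 8.99 against 5.35 cpm (log2 fold change 0.73, standard error 0.28, edgeR adjusted p = 0.332). The genes *phc3* and *cbx7* of Polycomb repressive complex 1 had log2 fold changes of -0.46 and -0.42 (edgeR adjusted p = 0.324 and 0.33).

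The genes whose levels ran most like the summed level of the 7 over the 6 libraries were *gabra5*, *pou4f2*, *cdkl2*, *sds* and *grxcr2*, with Pearson r of log2(cpm + 1) between 0.98 and 0.99. Of 12499 genes compared, 57 had an r over 0.95. This likeness is a description over 6 libraries that fall into 2 groups. None of the 5 was as far apart between the groups as the Hox genes of group 5: their log2 fold changes lay between -0.52 for *grxcr2* and -0.21 for *pou4f2*.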

How the data were processed

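RNA from 3 *dyrk1a* CRISPR and 3 uninjected control pools of stage 46 brains was polyA-selected and sequenced unstranded. The authors used STAR v2.7.3 for alignment to XenBase genome v9.1. Per the methods, exon bins were counted with DEXSeq. The authors deposited unnormalized counts for gene models and for exon bins, and log2 values that equal log2(cpm + 1) of the gene counts to within 5e-09. Special counters of the exon table (up to 5.62% of counts for reads in no exon) stayed out of the tests.

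Genes above 1 cpm in 3 or more libraries entered edgeR 4.0.16 in R 4.3.3 (TMM, quasi-likelihood F test, Benjamini-Hochberg adjustment over 15076 genes). Standard errors are the log2 fold change over the square root of F. Exon usage was tested with diffSpliceDGE on gene models with at least 5 counts. The p-values measure the spread between pools. Hox members and gene lists were chosen with earlier results of these data known. Named genes are the 7 members, other tested Hox genes, and list genes past the threshold or with the smallest p. *eed*, *suz12*, *ezh1* and *rbbp4* were added to set beside *ezh2*. A later RefSeq assembly served for gene order and overlaps only. Scripts were tested on simulated data. Alternatives used DESeq2 1.42.0, limma 3.58.1, other scalings and filters, a replicate block, and each library left out. Gene symbols came from the table of log2 values, so genes outside it could not be named. Values of some single list genes are not reported here.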

Additional observations from a re-analysis of the deposited data

How the results depend on the processing

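The log2 fold changes of the 7 Hox genes were negative under all 17 alternatives (119 of 119 values). These alternatives re-use the same libraries, and the genes were chosen on this contrast. The sign could therefore hardly turn, and nothing is read from this count. The value of *hoxc6* moved by more than the spread between replicates in 1 case, to -1.44 with the deposited log2 values, where 1 is added to each cpm. The replicate number did not pair the libraries: deviations of same-numbered libraries correlated at -0.13, 0.28 and -0.06. With the replicate block edgeR called 2 genes higher and 1 lower, and none of the 7. Against 0 genes higher and 1 lower in the main test, DESeq2 called 173 and 122, and edgeR without the filter called 120 and 60, with 3 of the 7 Hox genes among the lower genes in each. Scaling to the counts of Hox groups 1 to 3, an alternative chosen after the data were seen, gave 110 higher and 27 lower, 2 of the 7 among them, and 5 of the 7 without overlap. The cause of these differences was not tested. Leaving out each library in turn gave 0 to 5 genes higher and 0 to 7 lower, and 4 to 6 of the 7 Hox genes without overlap. The last count can hardly fall when a library is left out, since fewer libraries have to lie apart, and nothing is read from it. The 7 lower genes came without control replicate 1, with 1 of the Hox genes among them; 5 higher came without CRISPR replicate 2, 2 lower without CRISPR replicate 1, and 0 lower when CRISPR replicate 3 or either of control replicates 2 and 3 was left out. Exon usage gave 0 calls for the 7 genes in all 9 alternatives, with 1 bin at an unadjusted p under 0.05 with the replicate block and 2 without control replicate 1. The median of the caudal neuron list changed sign in 1 alternative, that of the chromatin list in 3 and that of the cofactor list in 1, all without 1 library. Counts of *hoxc6* in CRISPR libraries, at most 10, limit what can be said of its level or exons there.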
